A study of Mus musculus with 12 samples.

Results

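The Eph receptors and ephrins described here were 10 genes, Ephb1, Ephb2, Ephb3, Ephb4, Epha2, Epha4, Epha7, Efnb1, Efnb2 and Efna5, of 12289 genes tested. They were found through the RefSeq accession that the array files give for each probe, and 15 of 41174 probes carried an accession of 1 of these genes. All 10 genes passed the filter on dim probes. Ephb1 drew attention to the group since with MyoD its signal was lower in shSix4 cells than in shLuc cells. The genes were thus chosen by measured values of that comparison, which are given as a description with no test. Expression was measured on 12 single-colour Agilent whole-genome mouse arrays in C3H/10T1/2 cells, a fibroblast line from mouse embryos that can be turned towards skeletal muscle. Each of 4 groups had 3 arrays. They were the line with a stable hairpin against Six4 (shSix4) with a retrovirus for tagged MyoD, the control hairpin line (shLuc) with MyoD, shSix4 cells with the empty pBABE vector, and shLuc cells with the empty vector. All cells were infected and, 24 h later, kept for 24 h in differentiation medium with 2% horse serum. The labels do not say whether the lines were clones or whether each replicate was a culture of its own. P-values therefore reflect the spread among these samples alone, and that spread may be technical.

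Eph receptors are the largest family of receptor tyrosine kinases, and their ligands, the ephrins, are tied to the membrane of a neighbouring cell. A-class ephrins are held by a lipid anchor and B-class ephrins span the membrane, so that contact can signal into both cells. The system is known for repulsion and sorting of cells, for axon guidance and vessel formation, and in muscle for the guidance and spacing of migrating precursors and motor axons. Six4 is a homeobox factor whose family binds MEF3 motifs in promoters of muscle genes, and MyoD is a basic helix-loop-helix factor that binds E-boxes.

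The 300 bases around the start site (250 before, 50 after) are shown for Ephb1, the gene with the largest difference with MyoD, and for Efnb2 and Ephb4, whose levels were lower with MyoD. The sequences are RefSeq's on the GRCm38.p6 build, 5′ to 3′ on the gene's strand, and capitals mark E-boxes. Ephb1 is at chr9:102354644-102354943 (minus strand), Efnb2 at chr8:8661193-8661492 (minus strand) and Ephb4 at chr5:137349859-137350158 (plus strand).
Ephb1: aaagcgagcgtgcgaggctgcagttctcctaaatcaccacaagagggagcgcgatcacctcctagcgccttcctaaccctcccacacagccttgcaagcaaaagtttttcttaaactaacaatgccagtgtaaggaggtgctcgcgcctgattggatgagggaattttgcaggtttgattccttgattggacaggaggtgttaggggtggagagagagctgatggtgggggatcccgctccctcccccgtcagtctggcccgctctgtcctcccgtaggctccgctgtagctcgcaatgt
Efnb2: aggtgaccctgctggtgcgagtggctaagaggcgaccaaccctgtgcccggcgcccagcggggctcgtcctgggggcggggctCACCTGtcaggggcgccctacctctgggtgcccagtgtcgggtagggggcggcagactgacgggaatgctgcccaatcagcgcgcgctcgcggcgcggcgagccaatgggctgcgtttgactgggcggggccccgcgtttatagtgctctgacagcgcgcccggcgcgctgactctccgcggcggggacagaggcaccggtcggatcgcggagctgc
Ephb4: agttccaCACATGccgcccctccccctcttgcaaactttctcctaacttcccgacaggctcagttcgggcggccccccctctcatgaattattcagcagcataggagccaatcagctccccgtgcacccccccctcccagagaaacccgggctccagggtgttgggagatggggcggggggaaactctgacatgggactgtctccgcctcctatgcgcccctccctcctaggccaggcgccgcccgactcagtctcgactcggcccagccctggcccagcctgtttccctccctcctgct
E-boxes were searched as CANNTG, a palindrome, and MEF3 as TCAGGTTTC or its core TCAGGTT, on both strands. The Ephb1 window held none of these motifs. The Efnb2 window held 1 E-box, CACCTG, with its first base at -167 from the start site, and the Ephb4 window held 1, CACATG, at -243. Ephb2 (1) and Ephb3 (2) had E-boxes as well, and the windows of Epha2, Epha4, Epha7, Efnb1 and Efna5 had none. No window of the 10 genes held MEF3 or its core. Of 32851 such windows of the table, 72.3% held an E-box, 0.429% MEF3 and 4.07% its core.

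Levels are log2 of the background-corrected signal relative to the 75th percentile of the same array, and values are listed in the order of slides 1, 2 and 3. Each slide held 1 array of every group. On each array 22244 to 27437 of the 41174 probes exceeded background clearly ("well above background" in the scanner files). Slide 1 was scanned on another day than slides 2 and 3, and within groups it correlated with them at r 0.955 to 0.977, against 0.985 to 0.993 between slides 2 and 3. Of the 10 genes, 4 (Ephb4, Efnb1, Efnb2 and Efna5) were lowest on slide 1 in all 4 groups and 1 (Epha2) was highest there in all 4. Six4 itself had levels of -2.97, -2.86 and -1.47 in shSix4 cells with MyoD, against -1.38, -1.58 and -0.78 in shLuc cells with MyoD. With empty vector it had -4.03, -2.94 and -2.76 in shSix4 cells, against -2.55, -2.82 and -1.58 in shLuc cells, so it was lower in shSix4 cells on every slide. The groups overlapped with either vector, and on slide 2 with empty vector the lines were close. In the limma fit without slide, Six4 was called between the lines with neither vector. The labelled cell type fits its markers in that 10 of 10 fibroblast genes were well above background on all arrays.

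Ephb1, a receptor for B-class ephrins, was well above background on every array in just 1 group, shLuc cells with MyoD, and it passed the filter through that group alone. Its levels were -5.96, -5.48 and -5.07 in shSix4 cells with MyoD, against -2.64, -3.25 and -3.15 in shLuc cells with MyoD. The 2 groups did not overlap, and in shSix4 cells the array of slide 1 was not well above background. The difference between the measured group means was -2.49 ± 0.32 (log2, SE, n = 3 each), and 2 of the 3 shSix4 arrays were well above background. The remaining one, on slide 1, was set to the lowest signal well above background on its array (-4.95). With that value Ephb1 was 4.45-fold lower in shSix4 cells, which is an estimate and no strict minimum. The difference was -2.23 and -1.92 on slides 2 and 3, and without slide 1 the means differed by -2.07. No p is given, because this comparison chose the gene. With empty vector the levels were -7.02, -7.74 and -7.27 in shSix4 cells and -7.56, -7.70 and -8.46 in shLuc cells. All 6 of these arrays were not well above background, so no fold between the lines is given for the empty vector.

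**Figure D1:**
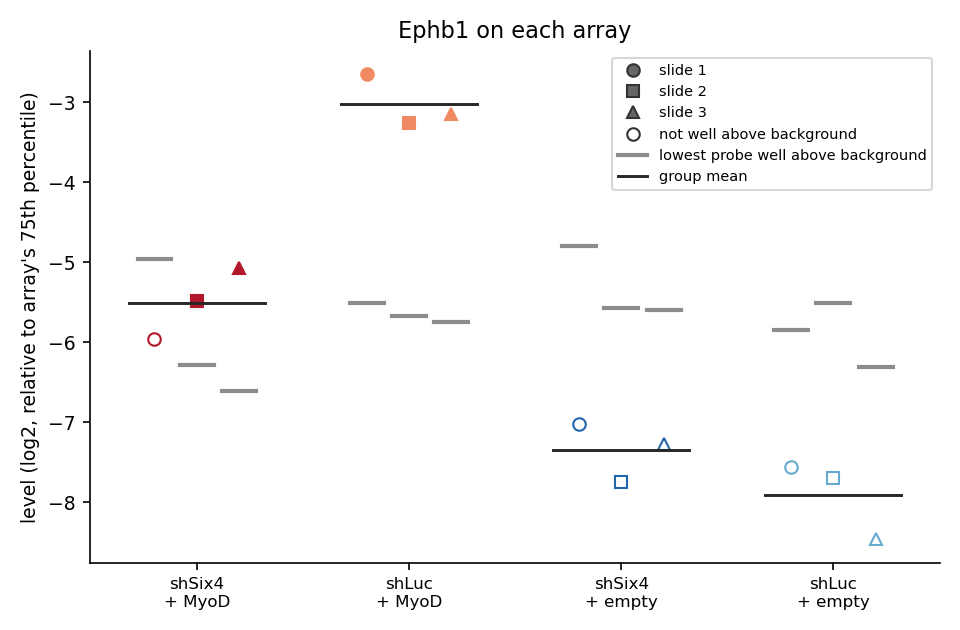
Ephb1 level on each array (log2, relative to the array's 75th percentile) in the 4 groups, with filled symbols where the probe was well above background, grey dashes at the lowest probe well above background on that array, and black lines at group means. The shLuc cells with MyoD lie between -3.25 and -2.64, all above the shSix4 cells with MyoD, and all 6 arrays with empty vector lie below the grey dashes.

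As signal before scaling, the Ephb1 spot read 11.1, 15.0 and 24.5 in shSix4 cells with MyoD and 106, 68.2 and 106 in shLuc cells with MyoD. With empty vector it read 5.28, 3.76 and 5.60 in shSix4 cells and 3.37, 1.85 and 2.57 in shLuc cells. The gene was thus faint even where it was highest. In shSix4 cells the measured means were -5.50 with MyoD and -7.35 with empty vector. The mean with MyoD was below the -5.32 of the lowest signals well above background on the empty-vector arrays, so no fold is given there. In shLuc cells Ephb1 was 7.34-fold higher with MyoD than the lowest signals well above background on the empty-vector arrays. This estimate sets the mean of the MyoD arrays, -3.02, against a mean of -5.89 for those signals. On the empty-vector arrays the gene's own measured mean was -7.91. The estimate is no strict minimum, since probes not well above background can have higher signals than these. The dimmer Epha4 probe was such a case, at -5.56 against -5.85 on slide 1 of shLuc cells with empty vector. With normexp background correction the estimate in shLuc cells was only 1.68-fold, and between the lines with MyoD the log2 difference was -1.56.

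Muscle markers, Myog and Myod1 are given beside Ephb1. The summed level of 8 skeletal muscle markers (linear scale, relative to the 75th percentile) was 208 to 372 in shSix4 cells with MyoD and 603 to 892 in shLuc cells with MyoD, with 8 of 8 markers well above background. With empty vector it was 8.88 to 47.3 in shSix4 cells and 18.9 to 37.9 in shLuc cells. The level of Myog, the factor that drives terminal differentiation, was 7.22, 6.45 and 6.90 in shSix4 cells with MyoD, against 8.18, 7.99 and 7.88 in shLuc cells with MyoD. The Myod1 probe read -2.11, -0.79 and -0.15 in shSix4 cells with MyoD, against 0.14, -0.11 and 1.31 in shLuc cells with MyoD. Of its spots, 0, 9 and 6 were marked as outliers in shSix4 cells with MyoD, against 0, 1 and 1 in shLuc cells with MyoD. With empty vector the Myod1 probe read -4.31 and -1.95 on slides 1 and 2 in shSix4 cells. In shLuc cells it read -4.71 and -2.49 there. Slide 3 with empty vector gave no Myod1 value in either line, with 10 spots marked as outliers in each. The part of the extent of conversion, or of the MyoD level, in the Ephb1 values was not tested. In bulk RNA, fewer converted cells and less RNA per converted cell cannot be told apart.

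The 5 genes most like Ephb1 over the 12 arrays, of 12144 genes with no missing value, were Rhd (Pearson r 0.990), Pygm (0.986), Actn2 (0.986), Myl4 (0.983) and Krt23 (0.982). These correlations are descriptions, since the arrays share groups and slides. Ephb1 was well above background on just 5 of the 12 arrays. Every r with Ephb1 thus rests in part on readings that were not. Pygm is the muscle glycogen phosphorylase, Actn2 the alpha-actinin of the sarcomere, Myl4 an embryonic and atrial myosin light chain, Rhd a Rhesus blood group protein and Krt23 a keratin. Myl4 was the only one of the 5 that was well above background on all 12 arrays. Its levels spanned 0.53 to 1.12 in shSix4 cells with MyoD, 2.31 to 2.67 in shLuc cells with MyoD, -1.76 to -0.65 in shSix4 cells with empty vector and -1.68 to -0.99 in shLuc cells with empty vector. The other 4 were well above background on 3 to 5 arrays and on none with empty vector. Among the other 9 Eph and ephrin genes, r with Ephb1 ran from -0.74 (Efnb2) and -0.73 (Ephb4) to 0.22 (Efnb1).

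**Figure D2:**
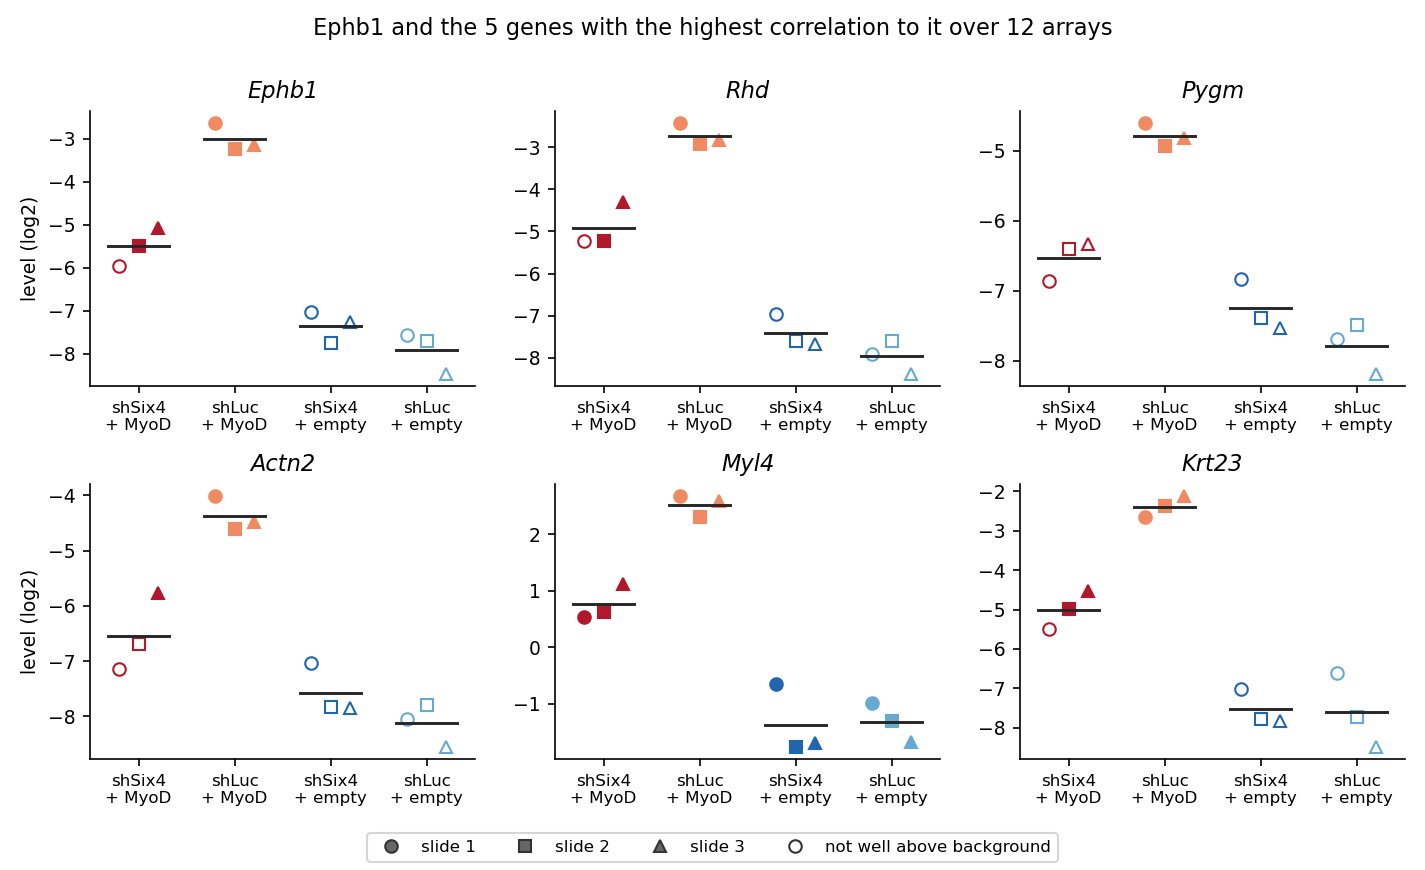
Levels (log2, relative to the array's 75th percentile) of Ephb1 and the 5 genes with the highest correlation to it, by group, with open symbols where the probe was not well above background and lines at group means. The shLuc cells with MyoD are highest in all 6 panels, and the shSix4 cells with MyoD lie between them and the empty-vector arrays except for Pygm and Actn2, where they overlap the shSix4 arrays with empty vector.

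The other 9 genes were well above background on all 12 arrays with their brightest probe, and none passed the test in any of 4 comparisons (limma, Benjamini-Hochberg adjusted p under 0.05 over 12289 genes). At an unadjusted p under 0.05 there were 1 of 9 for MyoD in shSix4 cells, 2 for MyoD in shLuc cells, 1 for shSix4 against shLuc with empty vector and 0 for the interaction, that is, for a MyoD response that differs between the lines. Over all genes the same test called 3.02% for MyoD in shSix4 cells, 6.19% for MyoD in shLuc cells, 0.057% for shSix4 against shLuc with empty vector and 0% for the interaction. At an unadjusted p under 0.05 the shares of all genes were 9.54%, 18.5%, 4.44% and 2.08% in the same order. For shSix4 against shLuc with MyoD, the comparison that chose Ephb1, the adjusted test called 0.309% of all genes, and no call of the other 9 is given. Arrays of the same slide deviated together, so the fit with slide as a block stands beside these counts. That fit called 1 of 9 lower for MyoD in shSix4 cells, Efnb2, where it called 2.16% of all genes lower. It called 3 of 9 lower for MyoD in shLuc cells, Efnb2, Ephb4 and Efna5, where it called 13.7% of all genes lower. For shSix4 against shLuc with empty vector and for the interaction it called 0 of 9, against 0.635% and 0% of all genes.

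Efnb2, a B-class ephrin and the preferred ligand of Ephb4, had lower levels with MyoD in both lines. In shSix4 cells it had 1.75, 2.89 and 2.68 with MyoD, against 3.08, 3.36 and 3.42 with empty vector. In shLuc cells it had 1.93, 2.88 and 2.33 with MyoD, against 3.32, 3.41 and 3.50 with empty vector. The groups did not overlap in either line, and slide 1 was the lowest with MyoD in both. The log2 change was -0.85 ± 0.31 (SE) in shSix4 cells, with a limma adjusted p of 0.303 without slide in the fit and 0.0346 with slide as a block. In shLuc cells it was -1.03 ± 0.31, or 2.04-fold lower with MyoD, with a limma adjusted p of 0.0863 without slide and 0.00719 with slide as a block. Over 34 settings the adjusted p ran from 0.0283 to 1.00 in shSix4 cells and from 0.00436 to 0.755 in shLuc cells. With slide as a block and slide 1 left out, the adjusted p was 0.223 in shSix4 cells and 0.0457 in shLuc cells. With slide as a block and each array left out in turn, Efnb2 stayed called in 5 of 12 fits in shSix4 cells and in 12 of 12 in shLuc cells. Without the array of slide 1 of shSix4 cells with MyoD, the fit without slide gave an adjusted p of 0.0275 in shLuc cells. A further Efnb2 probe changed by -0.95 in shSix4 cells and by -1.47 in shLuc cells. Over 23954 probes its limma adjusted p was 0.88 and 0.259 without slide, so it was not called there. With slide as a block it was 0.0433 and 0.00265. In that blocked fit over probes the brighter Efnb2 probe had 0.0521 in shSix4 cells and 0.0111 in shLuc cells. The interaction was 0.18 ± 0.44.

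Ephb4, the receptor that prefers Efnb2, was lower with MyoD as well. In shSix4 cells its levels were -0.02, 0.57 and 0.70 with MyoD, against 0.41, 1.00 and 1.13 with empty vector. In shLuc cells they were -0.15, 0.49 and 0.33 with MyoD, against 0.73, 1.06 and 1.07 with empty vector. The groups overlapped in shSix4 cells, where the within-slide differences were -0.44, -0.43 and -0.43, and did not overlap in shLuc cells. In shSix4 cells the log2 change was -0.43 ± 0.27 (SE), with a limma adjusted p of 0.782 without slide and 0.063 with slide as a block. In shLuc cells it was -0.73 ± 0.27, or 1.66-fold lower with MyoD, with a limma adjusted p of 0.164 without slide and 0.00287 with slide as a block. Over 34 settings this last change had an adjusted p of 0.00287 to 1.00, and with slide 1 left out of the blocked fit it was 0.0523. The interaction was 0.30 ± 0.38.

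Efna5, a lipid-anchored A-class ephrin, had levels of 1.82, 3.83 and 3.20 with MyoD in shSix4 cells, against 2.69, 3.98 and 3.71 with empty vector. In shLuc cells it had 1.81, 3.42 and 3.09 with MyoD, against 2.81, 4.16 and 3.64 with empty vector. The groups overlapped in both lines, with slide 1 well below the other slides in every group, and on every slide the level with MyoD was the lower one. In shSix4 cells the log2 change was -0.51 ± 0.59 (SE), with a limma adjusted p of 0.981 without slide and 0.079 with slide as a block. In shLuc cells it was -0.76 ± 0.59, with a limma adjusted p of 0.559 without slide and 0.00751 with slide as a block. Over 35 settings this last change had an adjusted p of 0.00534 to 1.00, and with slide 1 left out of the blocked fit it was 0.0599. The dimmer Efna5 probe, which was well above background on 11 of 12 arrays, differed by -0.31 in shLuc cells and was not called in either fit. The 2 probes of Efna5 thus differ in the call.

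**Figure D3:**
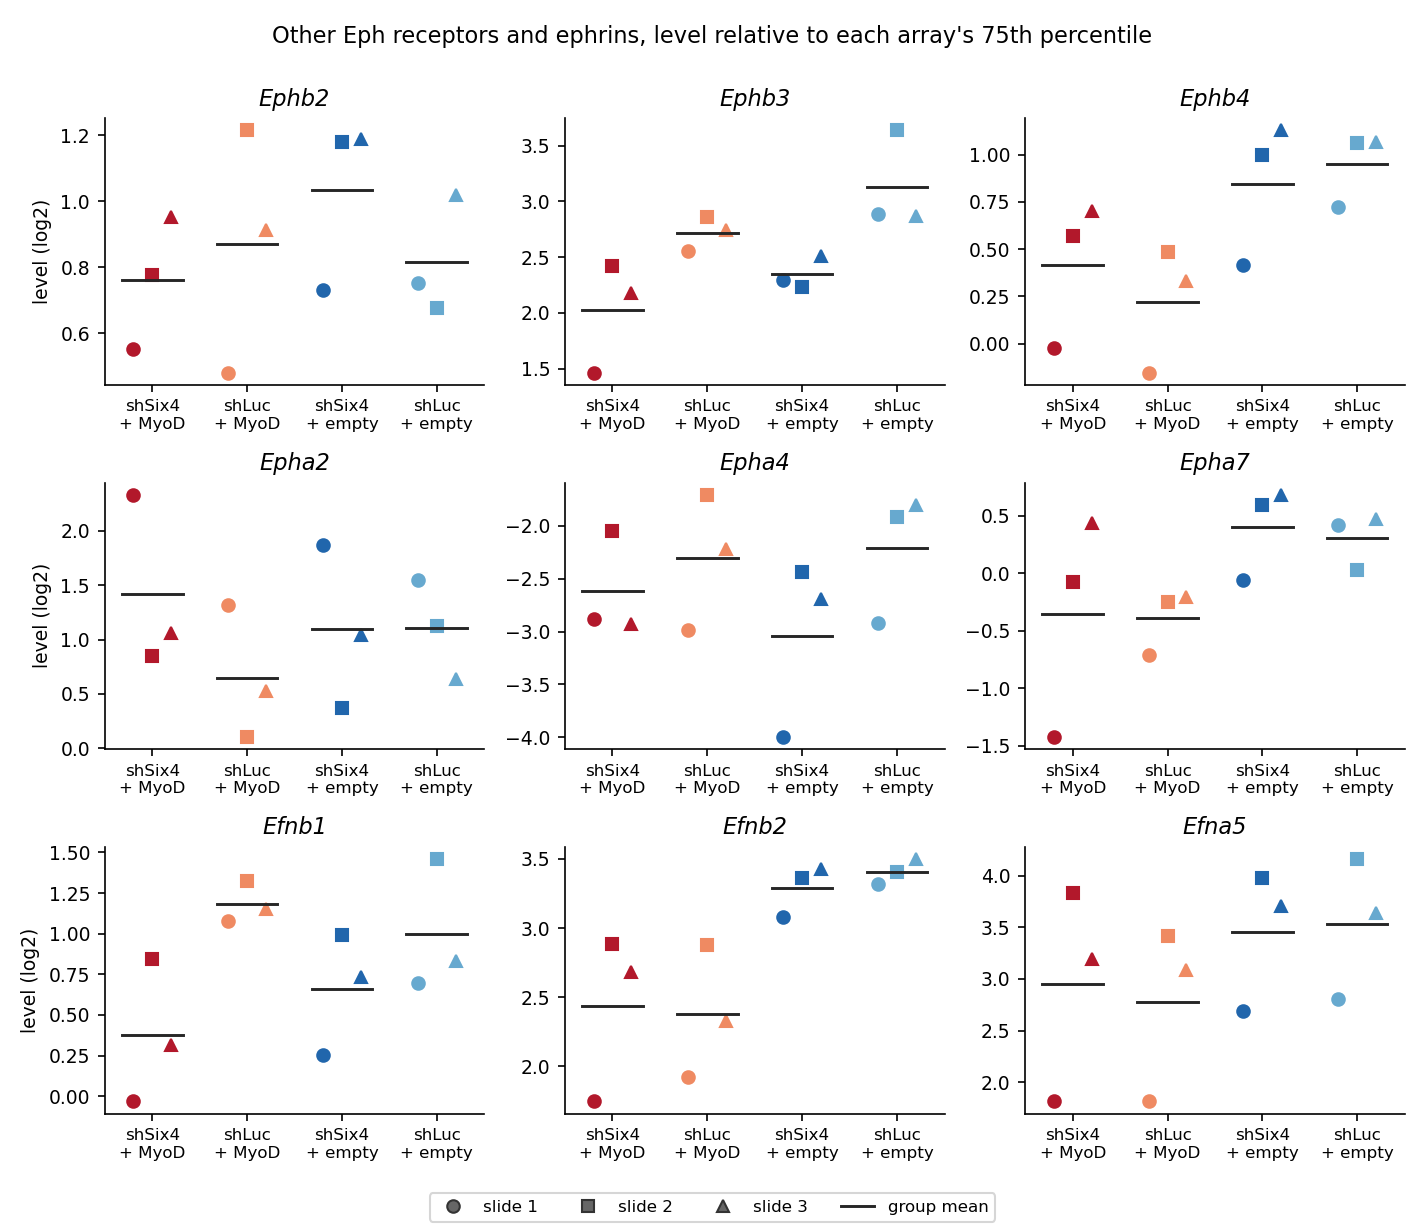
Levels (log2, relative to the array's 75th percentile) of the other 9 genes on each array, by group, with symbols for the slide and lines at group means; each panel has its own scale. Efnb2 is lower in both groups with MyoD than in both with empty vector without overlap, and in the panels of Ephb4, Efnb1, Efnb2 and Efna5 the circle of slide 1 is the lowest point of every group.

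Markers of cell types other than fibroblasts and muscle are given beside these changes, since Efnb2 and Ephb4 are also known from vessels. Of 8 endothelial markers 1 or 2 were well above background per array, and Pecam1, Cdh5, Kdr and Tie1, which define the cell type, were so on none. Only Vwf and Tek were tested. In shSix4 cells Vwf had measured means of -4.93 with MyoD and -6.96 with empty vector (limma adjusted p 0.00817 for these measured values). No array with empty vector was well above background. Against the lowest signals well above background on those arrays, Vwf with MyoD was only 1.31-fold higher, and no p is given for that fold. In shLuc cells Vwf rose by 1.52 (limma adjusted p 0.0294), with means of -4.15 with MyoD and -5.67 with empty vector. Tek was called lower with MyoD in both lines with slide as a block (changes of -1.24 in shSix4 cells and -1.10 in shLuc cells, limma adjusted p 0.023 and 0.0188) and in neither without slide. The summed level of the 8 markers was 0.155 to 0.239 in shSix4 cells with MyoD, 0.137 to 0.204 in shLuc cells with MyoD, 0.209 to 0.323 in shSix4 cells with empty vector and 0.177 to 0.286 in shLuc cells with empty vector. The leukocyte markers summed to 0.132 to 0.215 over all groups, with Ptprc well above background on no array. The neural and Schwann markers summed to 3.49 to 11.2 in shSix4 cells with MyoD, 3.47 to 6.53 in shLuc cells with MyoD, 12.2 to 14.8 in shSix4 cells with empty vector and 10.9 to 26.7 in shLuc cells with empty vector, with Nefl well above background on no array. The fibroblast markers summed to 931 to 1353 in shSix4 cells with MyoD, 947 to 1285 in shLuc cells with MyoD, 1065 to 1375 in shSix4 cells with empty vector and 1058 to 1855 in shLuc cells with empty vector. Gene by gene, 10 of 10 fibroblast markers had changes below 0 with MyoD in both lines, with a median of -0.25 in shSix4 cells and -0.47 in shLuc cells. None passed the test without slide, with 0 of 10 in shSix4 cells and 2 of 10 in shLuc cells at an unadjusted p under 0.05, and with slide as a block 0 of 10 were called lower in shSix4 cells and 5 of 10 in shLuc cells, beside 2.16% and 13.7% of all genes. The neural sum was lower with MyoD without overlap in both lines. Gene by gene, 0 of 4 tested neural markers were lower without overlap in shSix4 cells and 2 of 4 in shLuc cells. The shares of all genes lower without overlap were 6.88% and 14.5%. Without slide 0 of 4 passed the test in either line, beside 3.02% and 6.19% of all genes. With slide as a block 1 of 4 was called lower in each line, beside 2.16% and 13.7%. The part of these shifts in the changes of Efnb2, Ephb4 and Efna5 was not tested.

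Of the other B-class receptors, Ephb3 had lower levels in shSix4 cells with either vector. With MyoD its levels were 1.47, 2.42 and 2.18 in shSix4 cells, against 2.55, 2.86 and 2.74 in shLuc cells. With empty vector they were 2.30, 2.23 and 2.51 in shSix4 cells, against 2.89, 3.64 and 2.87 in shLuc cells. The groups did not overlap in either pair. The difference was -0.69 ± 0.28 (log2, SE) with MyoD, a comparison for which no p is given. With empty vector it was -0.79 ± 0.28, with a limma adjusted p of 0.867 without slide and 0.14 with slide as a block, so it did not pass the test. Ephb2 differed by -0.27 ± 0.23 with MyoD in shSix4 cells and by 0.05 ± 0.23 in shLuc cells, with a 95% interval of -0.45 to 0.56 in shLuc cells. Its levels with the brightest probe spanned 0.48 to 1.21 over all 12 arrays. The dimmer Ephb2 probe, well above background on all 12 arrays, spanned -3.98 to -1.41. With MyoD it differed by -0.85 ± 0.47 in shSix4 cells and by 0.25 ± 0.47 in shLuc cells. For shSix4 against shLuc with empty vector it differed by 0.88 ± 0.47, and it was not called in either fit.

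Efnb1, a B-class ephrin that binds several EphB receptors, had lower levels in shSix4 cells with MyoD. Its levels were -0.03, 0.84 and 0.32 in shSix4 cells with MyoD, against 1.08, 1.32 and 1.15 in shLuc cells with MyoD, and the groups did not overlap. The difference was -0.81 ± 0.28 (log2, SE), or 1.75-fold lower in shSix4 cells, and -1.11, -0.48 and -0.84 on the 3 slides. With empty vector the levels overlapped, at 0.26, 0.99 and 0.73 in shSix4 cells and 0.70, 1.46 and 0.83 in shLuc cells, and the difference was -0.34 ± 0.28. The difference between these 2 effects was -0.47 ± 0.40, with a limma adjusted p of 1.00. For shSix4 against shLuc with MyoD the groups of 2 of the other 9 genes, Efnb1 and Ephb3, did not overlap and both were lower in shSix4 cells, beside 6.27% of all genes that were lower without overlap.

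Among the A-class receptors, Epha2, a receptor of A-class ephrins found in many epithelial and stromal cells, had levels of 2.33, 0.85 and 1.06 in shSix4 cells with MyoD, against 1.32, 0.10 and 0.53 in shLuc cells with MyoD. With empty vector it had 1.87, 0.37 and 1.04 in shSix4 cells, against 1.55, 1.12 and 0.64 in shLuc cells. It differed by 0.77 ± 0.49 (log2, SE) between the lines with MyoD and by -0.01 ± 0.49 with empty vector. Epha7, also a receptor of A-class ephrins, differed by -0.76 ± 0.41 with MyoD in shSix4 cells, with overlap of the groups, and by -0.70 ± 0.41 in shLuc cells, without overlap, and passed the test in neither line (limma adjusted p 0.674 and 0.419). Its levels were -1.43 to 0.44 in shSix4 cells with MyoD, -0.71 to -0.21 in shLuc cells with MyoD, -0.06 to 0.68 in shSix4 cells with empty vector and 0.03 to 0.47 in shLuc cells with empty vector. Its other probe differed by -0.13 in shSix4 cells and by -0.79 in shLuc cells. Epha4, which binds ephrins of both classes, differed by 0.42 ± 0.48 with MyoD in shSix4 cells and by -0.09 ± 0.48 in shLuc cells. With empty vector it differed by -0.83 ± 0.48 between shSix4 and shLuc cells, with overlap of the groups and a limma adjusted p of 0.999 without slide and 0.158 with slide as a block. Its levels spanned -4.00 to -1.71, and its lowest array was slide 1 of shSix4 cells with empty vector. The dimmer Epha4 probe differed by 1.05 ± 0.34 with MyoD in shSix4 cells and by 0.19 ± 0.34 in shLuc cells. It was not called in either fit. That probe was well above background on 7 of 12 arrays and on none of shSix4 cells with empty vector.

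Over the 9 genes the median log2 change with MyoD was -0.32 in shSix4 cells and -0.45 in shLuc cells, beside -0.05 and -0.12 over all genes tested. In each line 7 of 9 were below 0. In shSix4 cells the groups of 1 of 9, Efnb2, did not overlap, beside 6.88% of all genes that were lower without overlap. In shLuc cells this held for 4 of 9, all lower with MyoD (Efnb2, Ephb4, Epha7 and Ephb3), beside 14.5% of all genes. For shSix4 against shLuc the median was -0.11 with empty vector and 0.03 with MyoD, beside -0.03 and 0.02 over all genes. With empty vector the groups of 1 of 9, Ephb3, did not overlap, beside 5.05% of all genes that were lower without overlap. The comparisons with MyoD share arrays with each other, and so do those between the lines.

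**Figure D4:**
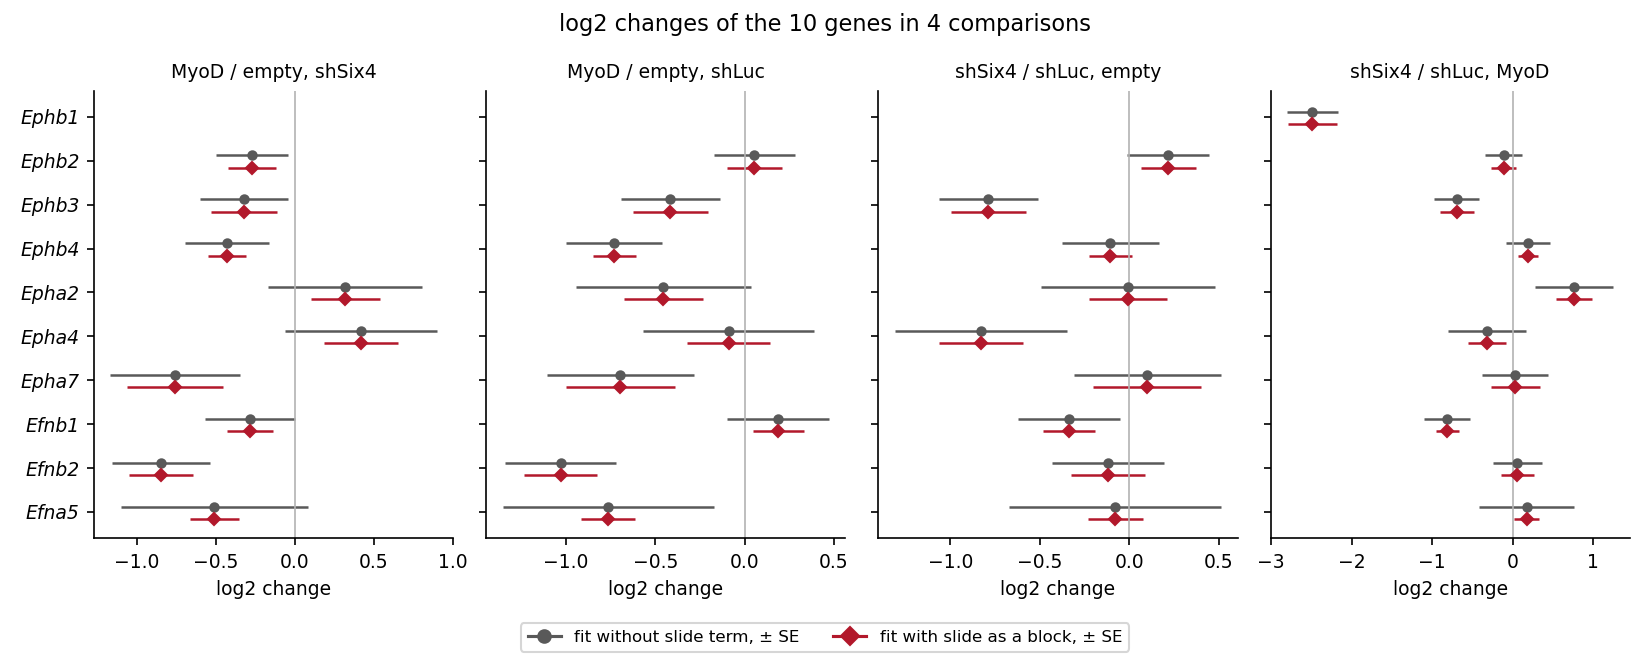
log2 changes of the 10 genes in 4 comparisons, with the comparison named above each panel, with bars of ± 1 SE for the fit without slide (circles) and with slide as a block (diamonds); each panel has its own scale. Ephb1 is drawn only for shSix4 over shLuc with MyoD (-2.49), because it was not well above background with empty vector, and the bars of Efna5 and Ephb4 are much shorter with slide as a block.

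Of 12 further Eph and ephrin genes 6 were tested (Epha1, Ephb6, Efna1, Efna2, Efna4 and Efnb3), Epha3, Epha5, Epha6, Epha8 and Epha10 were well above background on no array, and Efna3 was not analysed here. With MyoD in shLuc cells all 6 had changes below 0, with a median of -0.60, and 1 of 6 passed the test, beside 6.19% of all genes. This was Efna1, a lipid-anchored ligand of Epha2. Its levels were -1.24, -1.22 and -1.24 with MyoD in shSix4 cells, against -0.96, -0.54 and -0.69 with empty vector. In shLuc cells they were -1.57, -2.35 and -1.86 with MyoD, against -0.82, -0.82 and -0.94 with empty vector. Neither pair of groups overlapped. In shSix4 cells the log2 change of Efna1 was -0.50 ± 0.21 (SE), with a limma adjusted p of 0.426. It fell by 1.07 ± 0.21 in shLuc cells, or 2.10-fold, with a limma adjusted p of 0.00924, and it stayed called when each of the 12 arrays was left out. With normexp background correction its call in shLuc cells ended (change -0.70, adjusted p 0.961), and it was called there in 33 of 34 settings. The interaction was 0.56 ± 0.29, with an adjusted p of 1.00. With slide as a block 0 of 6 were called in shSix4 cells, and 3 of 6 were called lower in shLuc cells, Efna1, Efna4 and Ephb6, beside 13.7% of all genes. In the other 4 comparisons 0 of 6 passed the test in the fit without slide, with 2, 0, 2 and 0 at an unadjusted p under 0.05 for MyoD in shSix4 cells, shSix4 against shLuc with empty vector, the same with MyoD, and the interaction. Over all genes these shares were 9.54%, 4.44%, 7.73% and 2.08%.

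Of 40 genes that carry Eph and ephrin signals into the cell (adaptors, exchange factors, kinases, phosphatases and proteases) 35 were tested. With MyoD in shLuc cells 3 rose and 1 fell, and 31 did not pass the test, beside 6.19% of all genes called. Inppl1, a lipid phosphatase that binds EphA2, had the lowest adjusted p of these. Its levels were 4.66, 3.93 and 4.16 with MyoD in shSix4 cells, against 3.54, 2.94 and 2.92 with empty vector. In shLuc cells they were 5.53, 4.70 and 4.95 with MyoD, against 3.55, 3.0 and 3.10 with empty vector. The groups did not overlap in either line. In shSix4 cells its log2 change was 1.12 ± 0.29 (SE), with a limma adjusted p of 0.0757 without slide and 0.000184 with slide as a block. In shLuc cells it rose by 1.84 ± 0.29, or 3.59-fold, with a limma adjusted p of 0.00211. Between the lines with MyoD it differed by -0.81 ± 0.29. No p is given for this difference, because Inppl1 was singled out by a test that used the same shLuc arrays with MyoD.

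Tiam1, an exchange factor that activates Rac, rose by 1.32 ± 0.25 (log2, SE) with MyoD in shLuc cells, with a limma adjusted p of 0.00794. Its levels there were 0.10, -0.24 and -0.11 with MyoD, against -1.41, -1.50 and -1.31 with empty vector. Chn1, a Rac inhibitor known to act downstream of Epha4 in motor circuits, rose by 1.96 ± 0.48 in shLuc cells, with a limma adjusted p of 0.0353. Its levels there were -1.05, -1.68 and -1.94 with MyoD, against -3.57, -3.22 and -3.75 with empty vector. Src, a kinase recruited by Eph receptors, fell by 0.67 ± 0.16, with a limma adjusted p of 0.0343. Its levels there were -0.73, -0.60 and -0.74 with MyoD, against -0.07, 0.20 and -0.18 with empty vector. With these probes, the brightest of each gene, the groups of all 3 genes did not overlap. The dimmer Src probe read -4.47, -4.19 and -4.62 with MyoD, against -4.04, -4.48 and -4.03 with empty vector, and these overlapped. The dimmer Chn1 probe read -2.67, -3.67 and -3.74 with MyoD, against -5.33, -6.66 and -6.19 with empty vector, without overlap. Inppl1 and Tiam1 stayed called when each of the 12 arrays was left out in turn, Chn1 in 3 of 12 such fits (adjusted p 0.00485 to 0.138) and Src in 5 of 12 (0.0381 to 0.125). With normexp background correction none of the 4 was called, with changes of 1.93 (Inppl1), 0.78 (Tiam1), 0.96 (Chn1) and -0.46 (Src). In shSix4 cells 0 of 35 passed the test without slide, and 5 had an unadjusted p under 0.05, beside 9.54% of all genes. With slide as a block 3 rose there (Inppl1, Tiam1 and Chn1), beside 713 of all 12289 genes called higher and 7.97% called in either direction in that fit. With slide 1 also left out, the calls of Tiam1 (limma adjusted p 0.071) and Chn1 (0.0586) ended and that of Inppl1 stayed (0.0105), and with each array left out in turn Chn1 was called in 8 of 12 blocked fits. The interaction was called for 0 of 35 genes in either fit.

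**Figure D5:**
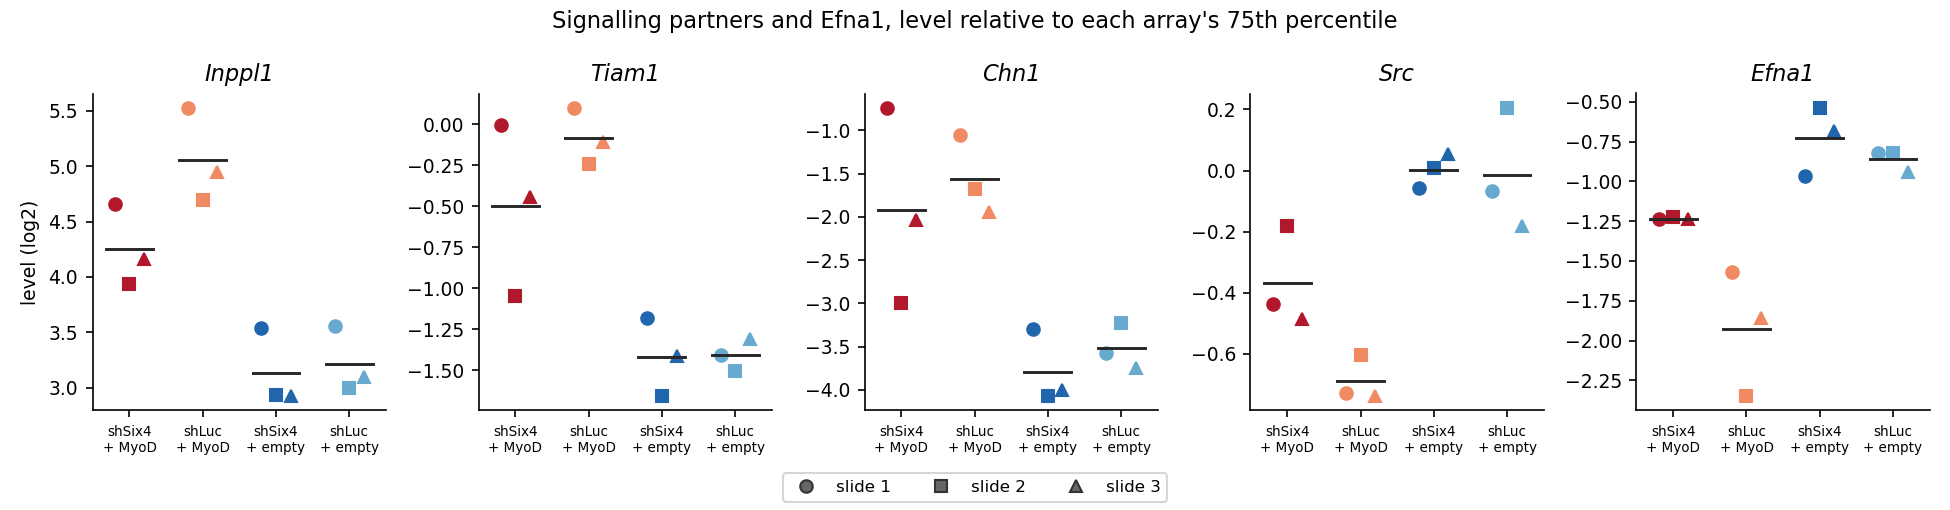
Levels (log2, relative to the array's 75th percentile) of Inppl1, Tiam1, Chn1, Src and Efna1 on each array, by group, with symbols for the slide and lines at group means; each panel has its own scale. Inppl1, Tiam1 and Chn1 are higher, and Src and Efna1 lower, in shLuc cells with MyoD than with empty vector, without overlap.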

How the data were processed

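The deposited scanner files, 1 per array, give a linear Cy3 intensity for each spot. The software was Agilent Feature Extraction, version 11.5.1.1 in the deposited headers, while the submitters' processing notes name 10.5.1.1. The processed signal had its background subtracted and was detrended on the array itself, per the file headers. A table of log2 values normalized by the authors was deposited too, by a method not given in the sources used here (3891 probes, 4 of them for these genes, column medians 8.68 to 8.73; levels, not centred by gene). It served only as an alternative. Groups came from the sample titles; the samples' descriptions, which state another cell line and stage and so contradict the other fields, were not used.

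Of 45018 spots per array, 43379 were non-control. Spots marked as outliers were left out and spots of a probe were averaged to 41174 probes, with no spot saturated. Each array's 75th percentile of log2 processed signal was subtracted. Probes had to be well above background on each of the 3 arrays of some group (23954 probes). RefSeq accessions were named through a RefSeq table (GRCm38.p6), which named 24844 of 26382 such probes. The probe with the highest mean stood for a gene. The array was designed on an older genome build, so probe coordinates are left out. Genes were tested with limma 3.58.1 (R 4.3.3), 4 group means, 8 residual and 2.89 prior degrees of freedom, with Benjamini-Hochberg adjustment over 12289 genes and a threshold of 0.05. The number of arrays limits the precision. The fit without slide was tested on simulated data that held no slide effect. The fit with slide as a block was not tested in this way.

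Replicate numbers mark slides in the headers, and same-slide arrays of different groups deviated together (r 0.278 to 0.819 over 18 pairs, against -0.733 to 0.498 over 36 pairs of different slides). The fit with slide as a block is therefore given where it changes a call. An estimated fold is given for Ephb1 and Vwf, in comparisons where some or all arrays of the dimmer group were not well above background. It is the brighter mean over the mean, on the arrays of the dimmer group, of the larger of the gene's signal and the lowest signal well above background. No fold is given where the brighter mean fell below that second mean, or where no array of either group was well above background. The estimated fold is no strict minimum, because probes not well above background can exceed that lowest signal.

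The 10 genes, the lists and the rules for named genes were chosen with earlier results of these data known. Named were the 10 genes, listed family and signalling genes that passed a test, the 5 genes most correlated with Ephb1, and Six4, Myod1 and Myog. Alternatives were no filter and a stricter filter on dim probes, normexp, quantile normalization, the mean of a gene's probes, outlier spots kept, the deposited table, slide as a block and arrays left out. Figures were drawn with matplotlib 3.10.9.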

Additional observations from a re-analysis of the deposited data

Results flagged for a closer look

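Epha2 changed in opposite directions with MyoD in the 2 lines on every slide. The log2 change was 0.46, 0.48 and 0.02 on slides 1, 2 and 3 in shSix4 cells, and -0.23, -1.02 and -0.11 in shLuc cells. The difference between these responses was 0.77 ± 0.69 (log2, SE), with a limma adjusted p of 1.00, so it did not pass the test.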

How the results depend on the processing

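The counts of genes called are given in the order MyoD in shSix4 cells, MyoD in shLuc cells, shSix4 against shLuc with empty vector, the same with MyoD, and the interaction (371, 761, 7, 38 and 0 in the fit without slide). They were 979, 2919, 78, 534 and 0 with the replicate block, that is, slide as a block, and the other 9 genes called were then 1, 3, 0 and 0, leaving out the comparison with MyoD between the lines, which chose the genes. Slide as a block without slide 1 gave 557, 1364, 379, 533 and 4, with 1 of the 9 called (Efnb2 in shLuc cells). Without slide 1 and without the block, the counts between the lines were 254 with empty vector and 251 with MyoD. The stricter filter gave 154, 435, 4 and 6 for the first 4 comparisons, and no filter gave 2 and 2 between the lines. Normexp, run on median signals because the files used here hold no mean signal (the planned version was not run), gave 55, 86, 0 and 0. Quantile normalization gave 4 between the lines with empty vector. The deposited table gave 51, 157, 3, 21 and 1 on its own smaller set of probes. The cause of these shifts was not tested, apart from the smaller number of genes in the table. With each array left out in turn the counts ran from 274 to 377, 496 to 846, 1 to 8, 1 to 50 and 0 to 1, with 0 to 1 of the 9 called for MyoD in shLuc and 0 elsewhere. With slide as a block as well they ran from 541 to 1090, 1623 to 2925, 9 to 261, 80 to 650 and 0 to 2, with 0 to 2, 3 to 4, 0 and 0 of the 9 called. In shLuc cells Ephb1 with MyoD was 7.34-fold above the lowest signals well above background on the empty-vector arrays. This estimate was 1.68-fold with normexp and 6.34-fold to 8.37-fold with 1 array left out, and the cause was not tested. The stricter filter leaves no Ephb1 value. Faint signal is the limit for Ephb1, and the number of arrays and the distance of slide 1 for the others. Settings without slide 1, normexp on median signals and the block with arrays left out were chosen after seeing the data.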
